A study of Mus musculus with 15 samples.

Results

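The genes described here are 36 interferon-stimulated and class I antigen presentation genes, chosen by symbol, followed through primary mouse chondrocytes treated with 3 kinase inhibitors, a histone deacetylase inhibitor or vehicle. They comprise 4 transcription factors (Stat2, Irf1, Irf7 and Irf9), 3 sensors of viral RNA (Ifih1, Ddx58 and Dhx58), 18 antiviral effectors (Isg15, Isg20, Ifit1, Ifit2, Ifit3, Ifi35, Ifi44, Oasl2, Mx1, Mx2, Rsad2, Bst2, Ifitm1, Ifitm2, Ifitm3, Parp14, Xaf1 and Rtp4), the feedback protease gene Usp18, 4 interferon-inducible GTPase genes (Gbp2, Gbp3, Igtp and Irgm1) and 6 genes of class I antigen presentation (H2-K1, H2-D1, B2m, Tap1, Tap2 and Tapbp). Of the 36 genes, 35 had at least 1 of the 45101 probe sets of the array, giving 67 probe sets. The gene with none was Ifi44. A probe set was tested when its mean signal reached 50 in at least 1 group, and 52 of the 67 did. By a probe set listing a single gene symbol, 29 of the 36 genes were tested. Isg15 was read only through a probe set that also lists Gm9706 and is given apart, and the means of Ifit3, Oasl2, Mx1, Mx2 and Parp14 stayed under 50 in every group.

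Chondrocytes were isolated from long bones of CD1 mouse embryos at embryonic day 15.5 and kept as monolayer cultures. They received LY294002 (an inhibitor of PI3K), UO126 (an inhibitor of MEK), SB202190 (an inhibitor of p38) or Trichostatin A (TSA, an inhibitor of histone deacetylases), or DMSO, the vehicle, for 24 hours. The 3 kinase inhibitors were used at 10 µM, and the dose of TSA is not given here. Each of the 5 groups had 3 Affymetrix mouse genome arrays, described as biological replicates. The labels do not say which arrays came from the same day or cell isolation, so p-values measure the spread between these arrays. Inhibitor selectivity was not measured on the arrays. In such cultures, fewer cells of a type and less RNA per cell cannot be told apart.

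Interferons are secreted proteins that act through receptors and JAK kinases on STAT proteins. Stat2 and Irf9 act in the complex that binds the interferon-stimulated response element, and Irf1 and Irf7 bind related sites. The genes so induced encode proteins that sense viral RNA, block viral entry, translation or release, damp the response again, and load peptides on class I molecules for display to T cells. Class I molecules are made by nearly all nucleated cells also without interferon, cartilage cells included.

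The response element was searched for as GAAANNGAAA on both strands, from 250 bases before to 50 bases after each RefSeq gene start (build GRCm38.p6). Promoter windows were at hand for 29 of the 36 genes. The motif was present in 15 of the 29 (51.7%), against 3.99% of 27025 genes with such a window. The 15 were B2m, Bst2, Ddx58, Gbp2, Gbp3, Ifih1, Ifit1, Ifit3, Ifitm2, Ifitm3, Igtp, Irgm1, Isg15, Rsad2 and Stat2. The gamma-activated sequence TTCNNNGAA, to which STAT dimers bind, was present in 7 of the 29 (24.1%), against 9.55% of genes. A match describes the letters in the window and is not evidence of binding. Stretches around the match are shown for 5 genes whose signal was higher with TSA (for Isg15, that of the probe set shared with Gm9706) and for Ifitm2, whose signal was lower, so that the letters can be set beside the values below. They run 5′ to 3′ on the gene's own strand, with the matches in capitals, which read TTTCNNTTTC where the motif lies on the other strand.
Isg15, chr4:156200845-156200926, minus strand: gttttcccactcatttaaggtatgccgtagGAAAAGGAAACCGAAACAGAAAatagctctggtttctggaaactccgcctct
Rsad2, chr12:26456533-26456602, minus strand: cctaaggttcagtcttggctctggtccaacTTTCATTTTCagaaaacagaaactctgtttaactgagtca
Ifit1, chr19:34640755-34640843, plus strand: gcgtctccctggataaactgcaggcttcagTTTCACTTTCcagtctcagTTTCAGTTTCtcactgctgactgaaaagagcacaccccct
Bst2, chr8:71537557-71537632, minus strand: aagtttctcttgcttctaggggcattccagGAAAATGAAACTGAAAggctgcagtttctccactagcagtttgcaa
B2m, chr2:122147518-122147587, plus strand: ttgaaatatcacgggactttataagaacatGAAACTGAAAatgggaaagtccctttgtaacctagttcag
Ifitm2, chr7:140955968-140956037, minus strand: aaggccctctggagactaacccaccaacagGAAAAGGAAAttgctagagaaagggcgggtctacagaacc
The Isg15 stretch holds 3 overlapping matches, those of Ifit1 and Bst2 hold 2, and the others hold 1. No match was found in the windows of H2-K1, H2-D1, Tap1, Tapbp, Irf1, Irf7, Irf9, Ifit2, Ifitm1, Isg20, Ifi35, Ifi44, Oasl2 or Xaf1.

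The signal is the MAS5 intensity of a probe set, and signals of different probe sets were not set against each other. Median signals of the 15 arrays ran from 29.7 to 39.9, and 40.9% to 44.9% of probe sets reached 50. All 7 chondrocyte markers examined were tested, and Col2a1, the main cartilage collagen, lay between 3903 and 7232 on every array. With TSA, 6 of these 7 markers were lower (Col2a1 was not called), and their summed signal was 10362 to 11873 with TSA against 16115 to 24578 with DMSO. Of 11 macrophage markers on the array, 6 were tested. With TSA, Cd68 was higher and Csf1r, Adgre1, Lyz2, Cd14 and Mrc1 were lower, and the summed signal of those on the array was 587 to 697 with TSA against 744 to 890 with DMSO. With DMSO these 6 had means of 257 (Lyz2), 145 (Csf1r), 131 (Adgre1), 68.2 (Mrc1), 68.0 (Cd68) and 62.1 (Cd14). The macrophage markers not tested, Tyrobp, C1qa, C1qb, Aif1 and Ptprc, stayed under 50 on every array. None of 3 dendritic cell markers, 1 of 6 lymphocyte markers (Cd8a, lower with TSA) and 1 of 5 endothelial markers (Kdr, not called) reached a mean of 50. No macrophage marker was called with a kinase inhibitor. Markers of fibroblasts, osteoblasts and skeletal muscle had signal too. With DMSO the means were 4726 for Col1a1, 4379 for Col3a1, 1786 for Ibsp and 333 for Acta1. Lower with TSA were 3 of 4 fibroblast, 2 of 2 osteoblast and 2 of 3 skeletal muscle markers tested. The part of any of these cells in the results below was not tested.

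TSA moved many of the genes, mostly up. Rsad2, the probe set shared by Isg15 and Gm9706, Usp18, Bst2 and the class I heavy chains H2-D1 and H2-K1 had higher signals than with DMSO, and Ifitm3 and Ifit2 had lower ones. In the limma fit with adjustment over 21765 probe sets, 16 of the 29 genes tested were higher and 4 were lower at an adjusted p of 0.05, and 9 did not pass. Over all 11751 genes tested, 30.6% were higher and 28.4% were lower with TSA. The median change of the 29 genes was 0.59 on the log2 scale, and that of all genes was 0.00. Of the 29, 7 reached a signal of 50 in TSA alone, and 6 of these were called higher (Irf7, Ifih1, Ifit1, Rsad2, Usp18 and Gbp3). Their entry into the test rested on the group in which they were high. Among the 21 genes that reached 50 in at least 2 groups, 10 were higher and 4 were lower, against 28.5% and 29.9% of all genes under that filter. Each of the 20 called genes had all 3 TSA arrays on one side of all 3 DMSO arrays. The share of all genes with such a separation was not counted, here or in the comparisons below, so separation adds no support to the calls. Leaving out single arrays gave 18 to 20 calls, not always of the same genes. With the Isg15/Gm9706 probe set counted in, 17 of 21 calls held whichever single array was left out. The 4 comparisons with DMSO share the same 3 DMSO arrays.

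**Figure D1:**
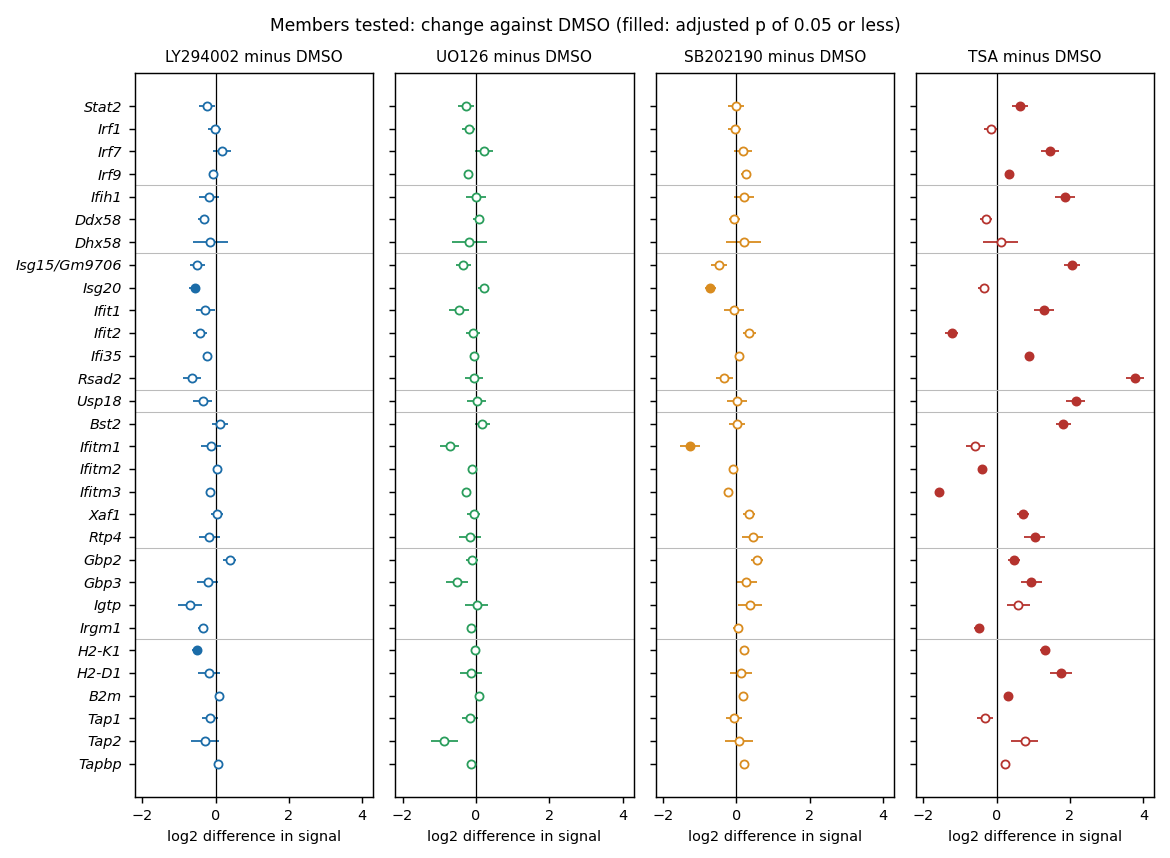
Change of each tested gene against DMSO (x axis: log2 difference in MAS5 signal, bars: standard error of the limma fit, 3 arrays per group), in panels for LY294002, UO126, SB202190 and TSA, with genes grouped by role between grey lines. Filled points passed an adjusted p of 0.05. The TSA panel holds 16 genes and the Isg15/Gm9706 probe set to the right and 4 genes to the left, while the LY294002 and SB202190 panels hold 2 filled points each and the UO126 panel 0.

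Among the transcription factors, 3 of 4 were higher with TSA, against 30.6% of all genes. None was called with a kinase inhibitor, where 1.51% to 5.63% of all genes were called in each direction. These 4 genes are too few to set apart from such shares, and Irf7 reached 50 with TSA alone. Irf7, which drives the later wave of type I interferon genes, had signals of 98, 85.6 and 76.4 with TSA, against 20.4, 37.3 and 40.2 with DMSO. It lay between 32.1 and 40 on the 9 arrays of the 3 kinase inhibitors, within the DMSO range. The TSA arrays stood above all the others. The change was 1.46 ± 0.24 (log2, SE, adjusted p = 0.000102), and 0.79 with signals under 50 set to 50, since the DMSO values lie where MAS5 signals are imprecise.

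Stat2 gave 77.9, 77.6 and 115.7 with TSA, against 68.2, 49.9 and 56.2 with DMSO, a difference of 0.62 ± 0.22 (adjusted p = 0.0241). Its signals were 42.6, 49.4 and 55.4 with LY294002, 53.3, 41.4 and 50.2 with UO126, and 48.2, 51.8 and 73.5 with SB202190. TSA arrays of this probe set were higher than every other array, and SB202190 replicate 3 came closest. The dimmer Stat2 probe set (1421911_at) was not called. It gave 68.3, 62 and 95.2 with TSA, against 27, 44.5 and 46.4 with DMSO. There SB202190 replicate 3, at 78.4, lay within the TSA range. The Stat2 call was lost without DMSO replicate 2 (adjusted p = 0.0904), DMSO replicate 3 (0.0576) or TSA replicate 3 (0.129).

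Irf9, the DNA-binding partner of Stat2, gave 178.8, 214.1 and 188.5 with TSA, against 153, 145.4 and 157.4 with DMSO, a difference of 0.35 ± 0.12 (adjusted p = 0.0215). It lay at 130.3, 151.2 and 155 with LY294002, at 126.3, 118.3 and 149.1 with UO126 and at 196.7, 176.5 and 170.6 with SB202190, the last overlapping the TSA arrays. The Irf9 call with TSA was lost without DMSO replicate 2 (adjusted p = 0.0659) or TSA replicate 2 (0.0969). Irf1, induced mainly by interferon gamma, had 314.9, 433.3 and 451.4 with TSA, against 404.9, 473 and 449.8 with DMSO. These arrays overlapped, as did those of LY294002 (384.6, 412.6 and 523.1), UO126 (362.5, 366.4 and 432.3) and SB202190 (324.2, 436.8 and 556.1). Its change was −0.16 ± 0.18 with TSA (adjusted p = 0.468).

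Of the RNA sensors, Ifih1 (MDA5, which binds long double-stranded RNA) gave 108.1, 91.1 and 83.9 with TSA, against 34.2, 19.6 and 25.0 with DMSO. The change was 1.87 ± 0.27 (adjusted p = 3.11e-05), or 0.91 with signals under 50 set to 50. The arrays of the kinase inhibitors lay between 19.3 and 35.8. Ddx58 (RIG-I, which binds RNA with a 5′ triphosphate) had 297.8, 381.9 and 308.6 with TSA, against 338.4, 502.4 and 376.1 with DMSO, and the groups overlapped (adjusted p = 0.123). With the replicate number as a block, Ddx58 was lower with TSA (limma, −0.29 ± 0.10, adjusted p = 0.0188). The numbers were not taken to pair these groups. Dhx58, a regulator of Ifih1 and Ddx58, was read differently by its probe sets. The brightest (1420769_at) had means of 44.3 with TSA and 43.3 with DMSO, and another (1451426_at) had means of 69.4 with TSA and 5.2 with DMSO and was called higher (adjusted p = 3.7e-05), a change of 0.45 with signals under 50 set to 50.

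Antiviral effectors were called in both directions. Of the 11 tested, against 30.6% of all genes higher and 28.4% lower, 6 were higher with TSA (Rsad2, Bst2, Ifit1, Ifi35, Xaf1 and Rtp4), 3 were lower (Ifitm3, Ifit2 and Ifitm2), and Isg20 and Ifitm1 did not pass. Among the 6, Rsad2 and Ifit1 reached 50 with TSA alone, so their place in this count rested on that group. Rsad2 (viperin, which makes a nucleotide that ends viral RNA chains) had signals of 486, 359 and 373 with TSA, against 29.3, 36.6 and 23.7 with DMSO. No array of another group exceeded 36.6. The difference was 3.78 ± 0.24 (adjusted p = 4.15e-09), the largest in size among the 29 genes, and 3.01 with signals under 50 set to 50. Both other Rsad2 probe sets were also higher, with means of 184 and 181 with TSA against 24.8 and 9.37 with DMSO.

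The probe set listed for Isg15 and Gm9706 (Isg15 is a ubiquitin-like modifier) gave 333.6, 278.2 and 276.1 with TSA, against 76.7, 69.9 and 66.8 with DMSO. The difference was 2.05 ± 0.21 (adjusted p = 7.38e-07), and the share of each gene in this signal cannot be read. The lowest TSA array was more than 3 times as bright as the brightest DMSO array, and the kinase inhibitor arrays lay between 34.3 and 64.0.

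Bst2 (tetherin, which holds budding virus at the cell surface) gave 245.8, 204.0 and 204.9 with TSA, against 71.3, 65.5 and 49.9 with DMSO, a difference of 1.82 ± 0.21 (adjusted p = 2.42e-06). The kinase inhibitor arrays (49.6 to 83.8) overlapped DMSO. Rtp4, an interferon-induced zinc finger protein, gave 164.3, 153.6 and 136.3 with TSA, against 92.4, 69.5 and 62.5 with DMSO (1.03 ± 0.29, adjusted p = 0.00718). The TSA arrays of Rtp4 stood above those of all other groups.

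Ifit1, which binds viral RNA that lacks the host's cap methylation, was at 87.3, 90.1 and 84.5 with TSA, against 39.9, 43.8 and 25.6 with DMSO (1.30 ± 0.27, adjusted p = 0.000774, and 0.80 with signals under 50 set to 50). Its neighbour Ifit2 went the other way. Ifit2 gave 61.9, 55.9 and 52.4 with TSA, against 162.7, 101.2 and 139.9 with DMSO, a difference of −1.22 ± 0.18 (adjusted p = 3.75e-05). All 3 TSA arrays of Ifit2 were under every array of the other groups, the nearest being LY294002 replicate 1 at 93.5.

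Ifitm3, a membrane protein that blocks virus entry from endosomes, was the strongest decrease. It gave 1191, 1186 and 1169 with TSA, against 2832, 3790 and 4060 with DMSO, a difference of −1.57 ± 0.11 (adjusted p = 1.73e-08). Every array of the kinase inhibitors lay between 2822 and 3418, above the TSA arrays. Ifitm2, from the same gene cluster, gave 1954, 2098 and 1721 with TSA, against 2360, 2758 and 2505 with DMSO (−0.40 ± 0.09, adjusted p = 0.00187). Ifitm1 had 138.3, 111.8 and 99.1 with TSA, against 156.3, 258.3 and 127.7 with DMSO, an overlap of groups (adjusted p = 0.0731).

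Of the remaining effectors, Ifi35 was higher with means of 724 with TSA and 396 with DMSO (0.87 ± 0.10), and so was a further probe set of it at 234 with TSA and 99.4 with DMSO, while its probe set 1459151_x_at did not pass (287 with TSA and 243 with DMSO, adjusted p = 0.074). Xaf1, a proapoptotic gene, had means of 132 with TSA and 80.1 with DMSO (0.72 ± 0.17), and its dimmer probe set (66.0 with TSA and 47.9 with DMSO) did not pass. Isg20, an exonuclease, was at 142.4, 149.2 and 165.2 with TSA, against 207.6, 199.4 and 176.0 with DMSO, separate groups whose difference missed the threshold (−0.35 ± 0.15, adjusted p = 0.0551). Ifit3, Oasl2, Mx1, Mx2 and Parp14 were under 50 in every group mean, and the highest TSA mean among them was 38.8, for Ifit3, which had 20.7 with DMSO.

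**Figure D2:**
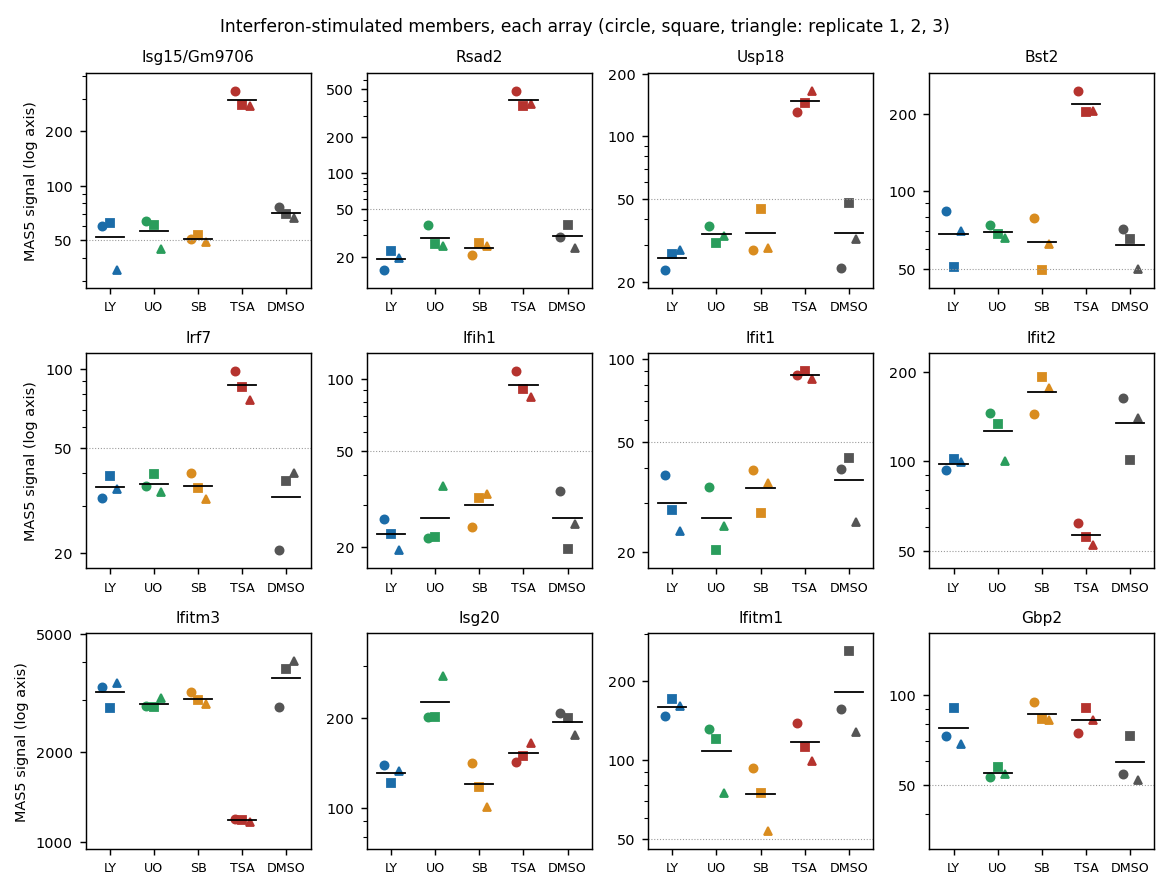
MAS5 signal on each array (log y axis, circle, square and triangle for replicates 1, 2 and 3, bar for the mean) of 12 probe sets in the groups LY294002 (LY), UO126 (UO), SB202190 (SB), TSA and DMSO, with a dotted line at a signal of 50. In Isg15/Gm9706, Rsad2, Usp18, Bst2, Irf7, Ifih1 and Ifit1 the 3 TSA arrays lie above all other arrays, in Ifit2 and Ifitm3 they lie below all others, and Isg20 and Ifitm1 have their lowest means with SB202190.

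Usp18, which removes Isg15 from proteins and blocks the type I interferon receptor, gave 131.6, 145.2 and 166.0 with TSA, against 23.3, 47.7 and 32.2 with DMSO. The difference was 2.16 ± 0.26 (adjusted p = 4.25e-06), or 1.56 with signals under 50 set to 50. The arrays of the kinase inhibitors lay between 22.7 and 44.9, inside the DMSO range apart from LY294002 replicate 1 at its lower end.

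The GTPases, which attack the vacuoles of intracellular pathogens, moved in both directions with TSA. Gbp2 had means of 82.5 with TSA and 59.6 with DMSO (0.48 ± 0.17, adjusted p = 0.0234), a call lost without DMSO replicate 1 (adjusted p = 0.0732), DMSO replicate 3 (0.0912), TSA replicate 2 (0.0844) or TSA replicate 3 (0.0519), and its other probe set did not pass (0.23 ± 0.25). Gbp3 had means of 59.6 with TSA and 31.2 with DMSO (0.95 ± 0.29, adjusted p = 0.0126, 0.29 with signals under 50 set to 50), and was lost without DMSO replicate 3 (0.072) or TSA replicate 1 (0.0561). Irgm1 was lower, at 93.5, 100.7 and 92.8 with TSA against 135.4, 130.2 and 136.3 with DMSO (−0.49 ± 0.12, adjusted p = 0.00259). Igtp was at 94.2, 115.2 and 71.3 with TSA and 46.0, 83.0 and 59.0 with DMSO, with overlap (adjusted p = 0.131).

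The class I heavy chains and their light chain were higher with TSA, and the peptide loading genes were not called. H2-K1 gave 2860, 2972 and 2623 with TSA, against 957, 1362 and 1133 with DMSO, a difference of 1.31 ± 0.12 (adjusted p = 1.72e-07). It lay between 753 and 1406 on all 9 kinase inhibitor arrays. H2-D1 gave 2479, 3618 and 2051 with TSA, against 774.2, 1065 and 571.9 with DMSO, a difference of 1.76 ± 0.30 (adjusted p = 0.00014). In every group of H2-D1, replicate 2 was the highest and replicate 3 the lowest, and it had 695, 985 and 487 with LY294002, 698, 1014 and 514 with UO126, and 804, 1113 and 686 with SB202190.

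B2m, the light chain, changed less. It gave 3049, 2865 and 2764 with TSA, against 2222, 2386 and 2408 with DMSO (0.31 ± 0.07, adjusted p = 0.00206). The other B2m probe set was also called, with means of 2439 with TSA and 1923 with DMSO, although its arrays overlapped. B2m was at 2393, 2581 and 2497 with LY294002, at 2577, 2525 and 2381 with UO126 and at 2813, 2592 and 2566 with SB202190.

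Tap1 and Tap2, the subunits of the peptide transporter, gave no call. Tap1 had 44.1, 45.1 and 51.7 with TSA, against 49.6, 61.0 and 64.4 with DMSO (−0.31 ± 0.22, adjusted p = 0.246). On the kinase inhibitor arrays Tap1 ran from 42.4 to 71.5. Tap2 had 60, 64.1 and 52.1 with TSA, against 27.9, 52.0 and 28.2 with DMSO (0.76 ± 0.37, adjusted p = 0.0949), and all of its kinase inhibitor arrays, from 13.9 to 45.1, were under 50. The Tap2 difference passed without DMSO replicate 2 and with signals under 50 set to 50. Tapbp (tapasin, which tethers class I molecules to the transporter) had 613, 611.4 and 726.1 with TSA, against 569.2, 600.2 and 509.1 with DMSO (0.22 ± 0.10, adjusted p = 0.0901). Tapbp was at 582, 562 and 595 with LY294002, at 514, 576 and 445 with UO126, and at 676, 669.6 and 602 with SB202190. The dimmer Tapbp probe set (1450378_at) went the other way with TSA and was not called. Its means were 141 with TSA and 165 with DMSO (−0.25).

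Class I heavy chain genes are highly polymorphic and alike in sequence, and several probe sets read each. Of 13 tested probe sets listed for H2-K1 or H2-D1, of which 1424948_x_at lists both and 1451593_at also lists H2-Q5, all 13 had a positive change with TSA, from 0.26 to 2.02, and 8 passed, against 28.1% of all probe sets tested that were higher. Among the 5 that did not were 3 H2-D1 probe sets with a pattern of their own across replicate numbers. In 1425614_x_at, 1427651_x_at and 1452544_x_at, replicate 2 was the lowest array in all 5 groups. Over the groups, replicate 1 was 3.04 to 3.36 times and replicate 3 was 4.48 to 5.85 times as bright as replicate 2. In the other 10 probe sets, replicate 1 was 0.705 to 0.970 times as bright as replicate 2. Within replicate numbers, the TSA array of 1452544_x_at was 2.32, 2.08 and 2.40 times the DMSO array of the same number, that of 1427651_x_at was 3.27, 2.83 and 2.81 times, and that of 1425614_x_at was 2.31, 1.52 and 2.67 times. With the replicate number as a block, 12 of the 13 probe sets passed, against 30.1% of all probe sets higher in that fit. These probe sets were picked out after their values were seen.

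**Figure D3:**
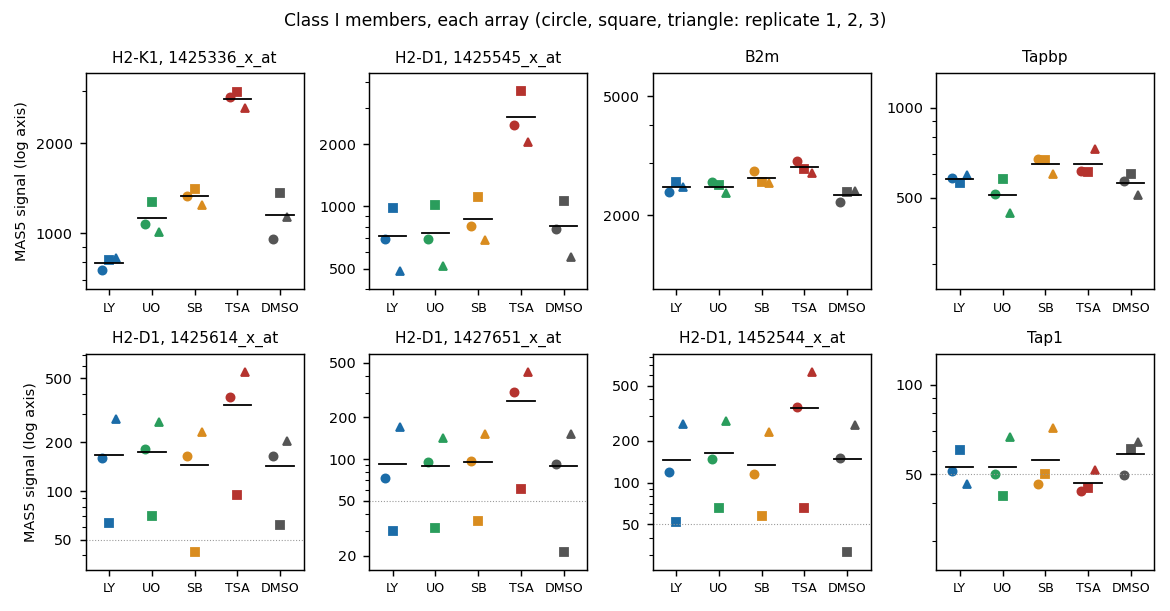
MAS5 signal on each array (log y axis, circle, square and triangle for replicates 1, 2 and 3, bar for the mean) of 8 class I probe sets in the groups LY294002 (LY), UO126 (UO), SB202190 (SB), TSA and DMSO, with a dotted line at a signal of 50. TSA arrays of H2-K1 and H2-D1 (1425545_x_at) lie above all others, and in 3 further H2-D1 probe sets the square, replicate 2, is lowest in all 5 groups.

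**Figure D4:**
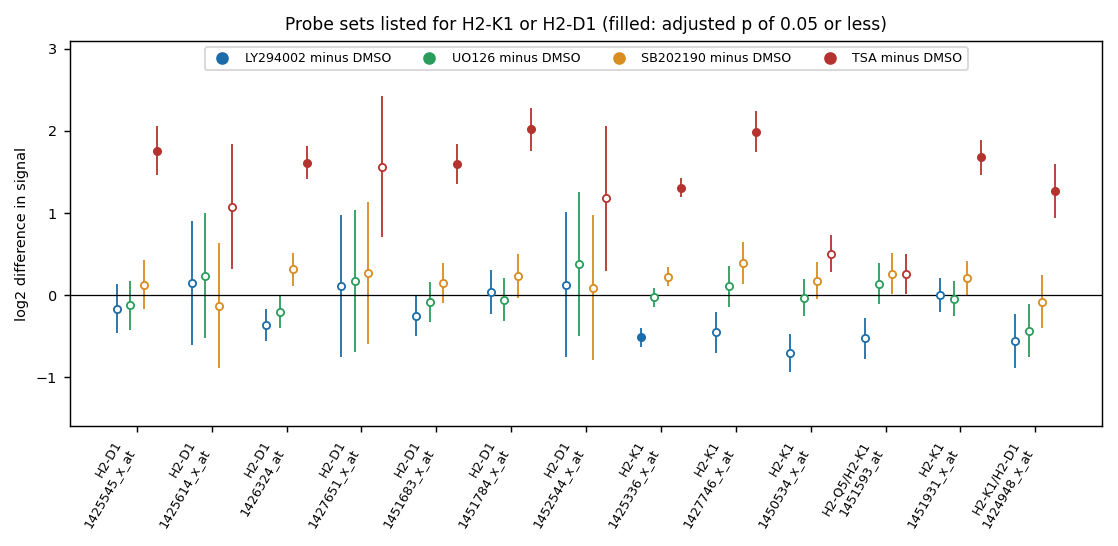
Change against DMSO of the 13 tested probe sets listed for H2-K1 or H2-D1 (y axis: log2 difference in MAS5 signal, bars: standard error, 3 arrays per group), for LY294002, UO126, SB202190 and TSA from left to right within each probe set. Filled points passed an adjusted p of 0.05, which holds for 8 probe sets with TSA and 1 with LY294002.

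With LY294002 few of the genes were called. None of the 29 was higher and 2 were lower, against 5.63% and 3.84% of all genes tested, and the median was −0.17 against 0.01 for all genes. At an unadjusted p under 0.05, 1 was higher and 7 were lower, against 15.3% and 11.4% of all genes. H2-K1 gave 753.4, 816 and 824.5 with LY294002, against 957.3, 1362 and 1133 with DMSO, groups that did not overlap (−0.51 ± 0.12, adjusted p = 0.0147). A further H2-K1 probe set, 1450534_x_at, changed by −0.71, while 1451931_x_at changed by 0.00, and neither passed. The H2-K1 call was lost without DMSO replicate 2 (adjusted p = 0.0652) or LY294002 replicate 1 (0.0581).

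Isg20 gave 139.6, 121.5 and 132.6 with LY294002, against 207.6, 199.4 and 176.0 with DMSO, again without overlap (−0.57 ± 0.15, adjusted p = 0.030). Its call was lost without DMSO replicate 1 (adjusted p = 0.0686), DMSO replicate 2 (0.0878) or any of LY294002 replicates 1 (0.0542), 2 (0.10) and 3 (0.0677). With the replicate number as a block, which same-numbered arrays of these groups bear out, 0 of the 29 genes were higher and 4 were lower, against 9.51% and 6.87% of all genes in that fit. These were H2-K1 (adjusted p = 0.00315), Isg20 (0.0242), Ddx58 (−0.32 ± 0.10, 0.0408) and Igtp (−0.70 ± 0.21, 0.0417). Ddx58 had 258.4, 372.8 and 340.5 with LY294002, against 338.4, 502.4 and 376.1 with DMSO, lower in each replicate number although the groups overlapped. Igtp had 29.1, 61.2 and 29.4 with LY294002, against 46.0, 83.0 and 59.0 with DMSO, also overlapping, and its change was −0.23 with signals under 50 set to 50.

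With UO126 none of the 29 genes passed in either direction, against 1.88% of all genes higher and 1.57% lower. By limma at an unadjusted p under 0.05, 0 were higher and 3 were lower (Ifitm1, Ifitm3 and Tap2), against 8.65% and 7.03% of all genes. The median was −0.10 against 0.01. Ifitm1 had 130.5, 119.9 and 74.8 with UO126, against 156.3, 258.3 and 127.7 with DMSO, overlapping by a single array (adjusted p = 0.211). With the block the count was also 0, and the share of all genes in that fit was not counted.

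With SB202190 none of the 29 was higher and 2 were lower, against 2.01% and 1.51% of all genes, with a median of 0.07 against 0.03. Ifitm1, which acts at the cell surface against virus entry, gave 93.1, 75.0 and 53.7 with SB202190, against 156.3, 258.3 and 127.7 with DMSO (−1.26 ± 0.26, adjusted p = 0.0194). The call was lost without DMSO replicate 2, its highest array (−0.97, adjusted p = 0.0787), SB202190 replicate 2 (0.0626) or SB202190 replicate 3 (0.0731). Isg20 gave 140.8, 117.4 and 100.9 with SB202190, against 207.6, 199.4 and 176.0 with DMSO (−0.71 ± 0.15, adjusted p = 0.0193). It was lost without DMSO replicate 1 (0.0532), DMSO replicate 2 (0.0656), SB202190 replicate 2 (0.0726) or SB202190 replicate 3 (0.0711). No array of Ifitm1 or Isg20 with SB202190 reached the DMSO range. Gbp2 gave 94.6, 83.2 and 82.5 with SB202190, against 54.2, 72.7 and 52.0 with DMSO, groups that did not overlap (0.55 ± 0.17, adjusted p = 0.0938). The Gbp2 difference passed with signals under 50 set to 50 (adjusted p = 0.0439) and with the replicate block (0.0463).

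The kinase inhibitors were also compared with each other. Between LY294002 and UO126, none was higher and 2 were lower with LY294002, against 4.36% and 3.82% of all genes. Isg20 had 139.6, 121.5 and 132.6 with LY294002, against 201.2, 201.5 and 277.5 with UO126 (−0.77 ± 0.15, adjusted p = 0.00589), a call that no single array ended. H2-K1 had 753.4, 816 and 824.5 with LY294002, against 1078, 1277 and 1014 with UO126 (−0.49 ± 0.12, adjusted p = 0.0208), lost without LY294002 replicate 1 (0.081), LY294002 replicate 2 (0.0523) or UO126 replicate 2 (0.0942). With the block 0 genes were higher and 4 were lower, against 7.28% and 6.48% of all genes in that fit. The further ones were Ddx58 (−0.40 ± 0.10, adjusted p = 0.0177) and Igtp (−0.72 ± 0.21, 0.0414, and −0.22 with signals under 50 set to 50).

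Between LY294002 and SB202190, 1 gene was higher and 2 were lower with LY294002, against 3.61% and 3.77% of all genes. H2-K1 was lower, at 753.4, 816 and 824.5 with LY294002 against 1334, 1406 and 1247 with SB202190 (−0.74 ± 0.12, adjusted p = 0.00156), and remained so without any single array. Ifit2 had 93.5, 102.1 and 99.2 with LY294002, against 143.8, 192.6 and 175.8 with SB202190 (−0.79 ± 0.18, adjusted p = 0.0177). This was lost without LY294002 replicate 1 (0.0609) or 3 (0.0513), or SB202190 replicate 2 (0.0839) or 3 (0.0612). Ifitm1 had 146.1, 169.7 and 160.7 with LY294002, against 93.1, 75.0 and 53.7 with SB202190 (1.14 ± 0.26, adjusted p = 0.0179), lost without LY294002 replicate 2 (0.0652) or 3 (0.0556) or SB202190 replicate 3 (0.0822). The arrays of the groups did not overlap for any of these genes, which adds no support, since the share of all genes so separated was not counted.

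Between UO126 and SB202190, 1 gene was higher and 3 were lower with UO126, against 4.99% and 4.78% of all genes. Isg20 had 201.2, 201.5 and 277.5 with UO126, against 140.8, 117.4 and 100.9 with SB202190 (0.92 ± 0.15, adjusted p = 0.00109), also without any single array. Gbp2 had 53.0, 57.6 and 54.4 with UO126, against 94.6, 83.2 and 82.5 with SB202190 (−0.66 ± 0.17, adjusted p = 0.0233), and its dimmer probe set was lower too (means of 31.8 with UO126 and 75.9 with SB202190). Irf9 (−0.47 ± 0.12, adjusted p = 0.0227) and Tapbp (−0.35 ± 0.10, adjusted p = 0.0492) were lower with UO126, with the arrays given above. The dimmer Tapbp probe set changed by −0.31 and did not pass. Calls other than Isg20 were lost without some single arrays. For Gbp2 these were UO126 replicates 1 (0.0654) and 3 (0.0731) and SB202190 replicates 1 (0.106) and 2 (0.0572). For Irf9 they were UO126 replicates 1 (0.0666) and 2 (0.0947) and SB202190 replicates 1 (0.111) and 2 (0.0574). The Tapbp call was lost without any of 5 of the 6 arrays.

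Other genes of the pathway were read from the same fit. The counts with TSA are to be read against the 30.6% of all genes that were higher and the 28.4% that were lower. For the kinase inhibitors these shares were 5.63% and 3.84% (LY294002), 1.88% and 1.57% (UO126) and 2.01% and 1.51% (SB202190). Of 28 genes of interferon signalling and its control, 22 were tested. With TSA 6 of the 22 were higher (Ifnar1, Jak1, Irf2, Mavs, Ticam1 and Pias1) and 4 were lower (Ifnar2, Socs1, Ikbke and Myd88), shares that do not exceed those of all genes. Socs1, a feedback inhibitor of JAK kinases, had a mean of 19.0 ± 11.6 with TSA and 110 ± 20.4 with DMSO (SD, n = 3 each). Myd88, an adaptor of Toll-like receptors, had 177 ± 11.2 with TSA and 410.3 ± 18.3 with DMSO. Ifnar1, a chain of the type I interferon receptor, was higher than with DMSO (180 ± 26.5) with LY294002 (308 ± 42.2), with SB202190 (264 ± 25.8) and with TSA (285 ± 18). With LY294002, Pias1 was also higher and Tlr3 and Myd88 were lower. With UO126 only Socs3 was called, at 357 ± 64.4 against 979 ± 47.4 with DMSO, and with SB202190 Jak1 was higher beside Ifnar1. Ifnb1 and Ifng were under 50 on all 15 arrays.

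Of 28 further interferon-stimulated genes, 18 were tested, and with TSA 9 were higher and 4 were lower, while 0 were called with LY294002, UO126 or SB202190. Few of all genes were called with these inhibitors, so the 0 does not set this list apart. The chemokine gene Cxcl10 had a mean of 242 ± 47.9 with TSA and 50.2 ± 8.3 with DMSO, and Trim25, which activates RIG-I, had 837 ± 85.2 with TSA and 289 ± 47.8 with DMSO. Ifi204 (17.9 ± 3.75 with TSA and 91.0 ± 32.6 with DMSO) and Lgals3bp (76.7 ± 5.99 with TSA and 288 ± 39.4 with DMSO) were lower. Of 19 further antigen presentation genes, 14 were tested, and with TSA 6 were higher and 4 were lower. The class II genes H2-Ab1 (210 ± 19.1 with TSA and 11.9 ± 2.92 with DMSO) and Cd74 (259 ± 47.1 with TSA and 43.7 ± 8.73 with DMSO) were higher. Ciita, the activator of class II genes, did not exceed 41.4 on any array. Psmb10, an immunoproteasome subunit (58.1 ± 10.5 with TSA and 298 ± 32 with DMSO), and Erap1, which trims peptides for class I (28.0 ± 1.33 with TSA and 119 ± 14.1 with DMSO), were lower, whereas another subunit, Psmb9, was higher (107 ± 12.7 with TSA and 31.4 ± 1.14 with DMSO). With UO126 Psmb9 was lower, at 9.03 ± 6.63 against 31.4 ± 1.14 with DMSO, both under 50. Over all 15 arrays the median signal was 15.3 for H2-Ab1, 43.7 for Cd74 and 31.7 for Psmb9. Genes like these can enter the test through the group in which they are high. For these lists no filter in 2 groups was tried, so their counts of higher genes with TSA carry that limit.

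The response element and the direction of change with TSA were set side by side. The motif was in the window of 8 of 14 genes that were higher, 3 of 4 that were lower (Ifitm2, Ifitm3 and Irgm1) and 2 of 7 that did not pass. The gamma-activated sequence was in 2 of 14, 2 of 4 and 3 of 7. These are counts of letters and calls, and no test was made of them.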

How the data were processed

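Signals of 15 arrays (3 per group, 5 groups) were used. The authors deposited signal intensity per probe set made with MAS5 on a linear scale. The trimmed mean of each array was 150, so the arrays were already scaled. Probe sets were named through the platform annotation, of which 34958 had 1 symbol, 932 several and 9211 none, and 99.4% of the single symbols matched RefSeq by gene ID. The 36 genes and all lists were chosen with earlier results of these data known. The 64 control probe sets were left out. Signals under 1 were set to 1, log2 values of 21765 probe sets with a mean of at least 50 in a group were fitted by group in limma 3.58.1 (R 4.3.3), with two-sided tests and Benjamini-Hochberg adjustment at 0.05, and a gene was read from its brightest probe set. The steps were tested on simulated data. In each comparison with DMSO, up to 8 called genes were given array by array by size of change (signals under 50 set to 50), and up to 4 between inhibitors. The class I genes and transcription factors were given throughout. Unmapped columns numbered 0. The precision is limited by the number of arrays.

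Same-numbered arrays deviated together in LY294002 and DMSO (r = 0.42, 0.16 and 0.30 for numbers 1, 2 and 3), UO126 and DMSO (0.42, 0.23 and 0.22) and LY294002 and UO126 (0.34, 0.17 and 0.22). The numbers were taken to pair groups where all 3 values exceeded 0.1, from the data and not the labels. SB202190 and DMSO (0.13, 0.09 and 0.23) and TSA and DMSO (0.10, 0.17 and 0.05) missed this cutoff. So did LY294002 and SB202190 (0.12, 0.08 and 0.21) and UO126 and SB202190 (0.12, 0.06 and 0.26). Missing the cutoff does not show that groups were unpaired. The main fit used no pairing in any comparison. With the block, the SE of H2-D1 with TSA was 0.07, smaller than the one given above. The alternatives tried were quantile normalization, median centring, other filters, log2 of signal plus 16, a floor of 50, fits of 2 groups, any probe set of a gene, the replicate block, leaving out each array, and, chosen after seeing the data, leaving out all 5 arrays of a number.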

Additional observations from a re-analysis of the deposited data

How the results depend on the processing

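With median centring, called genes numbered 1 in LY294002 against DMSO, 1 in SB202190 against DMSO, 1 in LY294002 against UO126 and 2 in UO126 against SB202190 (main counts 2, 2, 2 and 4). This centring moved the median of all probe sets by 0.12 in LY294002 against DMSO and 0.11 in LY294002 against UO126. With quantile normalization UO126 against DMSO had 1 (Ifitm3), against 0, and without a signal filter LY294002 against DMSO had 1. With 2 groups alone in the fit, LY294002 against DMSO and SB202190 against DMSO had 0 and UO126 against SB202190 had 2. With the replicate block, LY294002 against DMSO and LY294002 against UO126 had 4 each, all lower. Over all genes the block fit called 6.87% and 6.48% lower there, against 3.84% and 3.82% in the main fit. In the comparisons whose numbers were not taken to pair, the block gave 6 for LY294002 against SB202190 and 3 for SB202190 against DMSO. Those 3 were Gbp2, Ifitm1 and Isg20, as with a floor of 50. The block also gave 6 for UO126 against SB202190 and 23 for TSA against DMSO. The latter added Ddx58 and Ifitm1 (lower, adjusted p = 0.0188 and 0.0232) and Igtp (higher, 0.0265). For these comparisons the share of all genes called with the block was not counted. Their higher counts are therefore not a result about these genes. Every array correlated best with its own number in SB202190 and DMSO and in LY294002 and SB202190 (6 of 6 arrays), but 3 of 6 did in TSA and DMSO and 5 of 6 in UO126 and SB202190. The cause of these differences was not tested.

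With arrays left out, singly or by number, the counts ran from 0 to 2 for LY294002 against DMSO, 0 to 1 for UO126, 0 to 2 for SB202190 and 17 to 20 for TSA, and from 0 to 2 for LY294002 against UO126, 1 to 3 for LY294002 against SB202190 and 1 to 3 for UO126 against SB202190. The 1 call of UO126 against DMSO arose without DMSO replicate 1. Over the named genes and alternatives, 1019 of 1126 values kept their side of the threshold, 105 fell short of it, 2 newly passed (Tap2 with TSA) and 0 called values reversed. The 1126 include genes given throughout that were not called, and all 105 losses fell on called ones. Isg20 with LY294002 lost its call in 11 of 17 alternatives. Signals under 50 are imprecise, so folds of Rsad2, Usp18, Irf7, Ifih1, Ifit1 and Gbp3 with TSA, and of Igtp with LY294002, depend on the floor.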
